A study of Homo sapiens with 82 samples.

Results

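The genes that encode ligands of the epidermal growth factor receptor (EGFR) were followed in HT29 cells, an established human colorectal adenocarcinoma line, after activation of the nuclear receptors LXR and PPARG. The 8 members, AREG, AREGB, EREG, TGFA, HBEGF, BTC, EGF and EPGN, were chosen by gene symbol from 51838 rows of the count tables, and the family was selected on an earlier result, the low AREG level after 48 h of GW3965. The comparison of GW3965 with DMSO at 48 h is therefore given as a description, with no test for the members. RNA-seq covered 32 libraries, with 4 replicates in each of 8 groups, from a series of 82 samples that also holds ChIP-seq data. Cells received 10 μM of the LXR agonist GW3965, 10 μM of a second LXR agonist, T0901317, 10 μM of the PPARG agonist rosiglitazone, or the carrier DMSO, for 24 or 48 h. All groups were of the same line, with no engineered genetic change named for them, and had been grown in medium with charcoal/dextran-treated serum before treatment. The 3 drugs of a time point were compared with the same 4 DMSO libraries. The DMSO libraries at 48 h thus enter the contrast that chose the family and also those of T0901317 and rosiglitazone at 48 h and of DMSO at 48 h against 24 h. They also enter every change of a drug response between 24 and 48 h. The GW3965 libraries at 48 h enter the comparison of GW3965 with T0901317 at 48 h too, which is likewise given without a test for the members. Nothing in the labels ties replicates to separate cultures or days, so the p-values measure the spread between these libraries, which may be technical.

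EGFR ligands are made as membrane-anchored precursors and are released by metalloproteases of the ADAM family. The released factor binds EGFR or its relative ERBB4, the receptor pairs with another ERBB protein, and adaptors carry the signal to RAS and on to the kinase ERK. Amphiregulin (AREG) and epiregulin (EREG) are prominent ligands in colorectal epithelium and its tumours, where cells can produce both ligand and receptor. AREG and AREGB are near-identical copies in the annotation of the files, and the current RefSeq table lists AREGB as a synonym of AREG. Reads of 1 copy can therefore be assigned to the other, and the sum of both rows is given beside them. In all counts of members both rows enter, although they are not independent of each other.

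Promoters are shown for the 3 ligands whose levels moved most, AREG, EREG and HBEGF. Of the 8 members, 7 had a RefSeq promoter in build GRCh38.p14, and AREGB had none of its own. The 250 bases before the annotated start lie at chr4:74444886-74445135 (plus strand) for AREG, at chr4:74364895-74365144 (plus strand) for EREG and at chr5:140346604-140346853 (minus strand) for HBEGF, each written 5′ to 3′ on the gene's strand. Capitals mark matches to the cyclic AMP response element (CRE) TGACGTCA or to the TATA box TATAAA.
AREG: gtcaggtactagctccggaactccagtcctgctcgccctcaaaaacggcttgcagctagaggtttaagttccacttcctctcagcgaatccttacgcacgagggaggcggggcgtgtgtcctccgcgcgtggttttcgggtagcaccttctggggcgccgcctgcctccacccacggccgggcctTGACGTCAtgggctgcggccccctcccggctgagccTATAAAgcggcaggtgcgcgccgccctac
EREG: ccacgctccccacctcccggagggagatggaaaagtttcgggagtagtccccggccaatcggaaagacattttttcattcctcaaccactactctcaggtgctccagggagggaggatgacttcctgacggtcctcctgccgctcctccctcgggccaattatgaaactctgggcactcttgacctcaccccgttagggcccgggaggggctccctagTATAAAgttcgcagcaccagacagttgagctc
HBEGF: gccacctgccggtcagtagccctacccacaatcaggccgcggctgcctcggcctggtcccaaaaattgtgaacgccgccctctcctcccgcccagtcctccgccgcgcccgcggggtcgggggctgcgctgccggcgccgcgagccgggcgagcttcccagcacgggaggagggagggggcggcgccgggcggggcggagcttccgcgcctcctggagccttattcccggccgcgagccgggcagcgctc
AREG held a CRE whose first base lay 65 bases before the start and a TATA box from base 29, and EREG held a TATA box from base 32. Neither motif was found in the HBEGF window, whose GC content was 76.4%, against 65.2% for AREG and 58.0% for EREG. On either strand, the CRE occurred in 1.65% and the TATA box in 10.7% of 35116 promoter windows of this length. The AP1 motif TGANTCA (6.57% of all windows), the EGR1 motif GCGNGGGCG (8.41%) and the LXR repeat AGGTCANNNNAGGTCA (0.0142%) had no match in these 3 windows. Among the other members, EPGN held a TATA box from base 29 and EGF an AP1 motif from base 17, and no match overlapped another. Matches are letters in a sequence and were not tested for binding.

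Total counts per library ran from 21044798 to 51332656, and all levels are CPM, counts relative to the library total after scaling by the trimmed mean of M values (TMM). A gene was called higher or lower when it changed 1.5-fold or more with an adjusted p below 0.01 in edgeR. Fewer cells that express a gene and less RNA per cell cannot be told apart in such bulk samples. Known targets of the receptors rose with the drugs. ABCA1, a cholesterol exporter and LXR target, rose at 48 h by 5.77 (log2, SE 0.129) with GW3965 and by 5.12 (SE 0.128) with T0901317, with adjusted p-values of 7.98e-17 and 4.06e-16. ANGPTL4, a PPARG target that inhibits lipoprotein lipase, rose by 6.75 (SE 0.307) with rosiglitazone, with an adjusted p of 4.17e-12. Separation by receptor was not complete, since the PPARG target PDK4 also rose at 48 h with GW3965 (2.29, SE 0.111, adjusted p 8.69e-12) and with T0901317 (1.55, SE 0.112, adjusted p 2.19e-09). ANGPTL4 at 48 h had a mean of 0.247 CPM with DMSO, 3.54 CPM with GW3965 and 0.602 CPM with T0901317. The LXR target ABCG1 had a mean at 48 h of 23.1 CPM with DMSO, 242 CPM with GW3965, 189 CPM with T0901317 and 54.6 CPM with rosiglitazone. All 10 colorectal epithelial markers were above 1 CPM on average. The summed level of 6 fibroblast markers lay between 3.75 and 10 CPM per library. The sum of 3 endothelial markers found in the tables reached at most 0.586 CPM. Of 6 immune markers, the pan-leukocyte gene PTPRC and the T cell gene CD3E had group means of at most 0.0388 CPM. The immune sum of 464 to 765 CPM was nearly all lysozyme (LYZ), whose mean at 48 h was 467 CPM in the DMSO group and 566 and 711 CPM in the GW3965 and T0901317 groups. The monocyte and macrophage gene CD14 was at 0.598 CPM in the DMSO group at 48 h and rose to 2.32 CPM with GW3965 (1.94, SE 0.193, adjusted p 1.29e-07) and to 3.52 CPM with T0901317 (2.54, SE 0.189, adjusted p 3.11e-09), and with T0901317 it had risen at 24 h as well (0.86, adjusted p 0.004). CD68, a lysosomal gene of macrophages, rose at 48 h from 7.29 CPM to 13.4 CPM (adjusted p 6.17e-07) and 12.2 CPM (adjusted p 5.82e-06). The part of LYZ, CD14 and CD68 in the results on the ligands was not tested.

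In DMSO-treated cells, AREG, EREG and HBEGF were many times higher at 48 h than at 24 h, while TGFA stayed near one level. The sum of AREG and AREGB was 37.5, 39.8, 40.1 and 34.2 CPM in the DMSO libraries at 24 h and 463, 422, 480 and 465 CPM at 48 h. EREG was 46.3, 46.5, 43.7 and 45.7 CPM at 24 h and 392, 367, 384 and 391 CPM at 48 h. HBEGF, the heparin-binding ligand, was 3.36, 4.28, 4.18 and 4.38 CPM at 24 h and 103, 100.04, 119 and 107 CPM at 48 h. For each of the 3, every library at 48 h lay above every library at 24 h. In the fit of all 32 libraries, DMSO at 48 h exceeded DMSO at 24 h by 3.59 (log2, SE 0.125, adjusted p 3.2e-21) for the AREG pair, a ratio of means of 12.1. The log2 difference was 3.07 (SE 0.1002, adjusted p 8.54e-22) for EREG and 4.73 (SE 0.137, adjusted p 4.09e-23) for HBEGF, a ratio of 26.5. BTC, betacellulin, also rose, from 1.56 ± 0.477 to 3.18 ± 0.814 CPM (SD, n = 4), by 1.03 (log2, SE 0.205, adjusted p 8.68e-05). TGFA was 43.9 ± 2.56 CPM at 24 h and 51.0 ± 1.41 CPM at 48 h, a difference of 0.22 (SE 0.0713, adjusted p 0.0118) that did not pass the rule. EGF and EPGN did not pass it either. Thus 5 of 8 members rose and none fell, when 10.9% of 23140 tested genes rose and 9.59% fell. The DMSO libraries at 48 h enter the contrast that chose the family, so these p-values are not independent of that choice. The time points are also separate count tables, so hours in culture and anything else that differed between the tables cannot be told apart here.

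**Figure D1:**
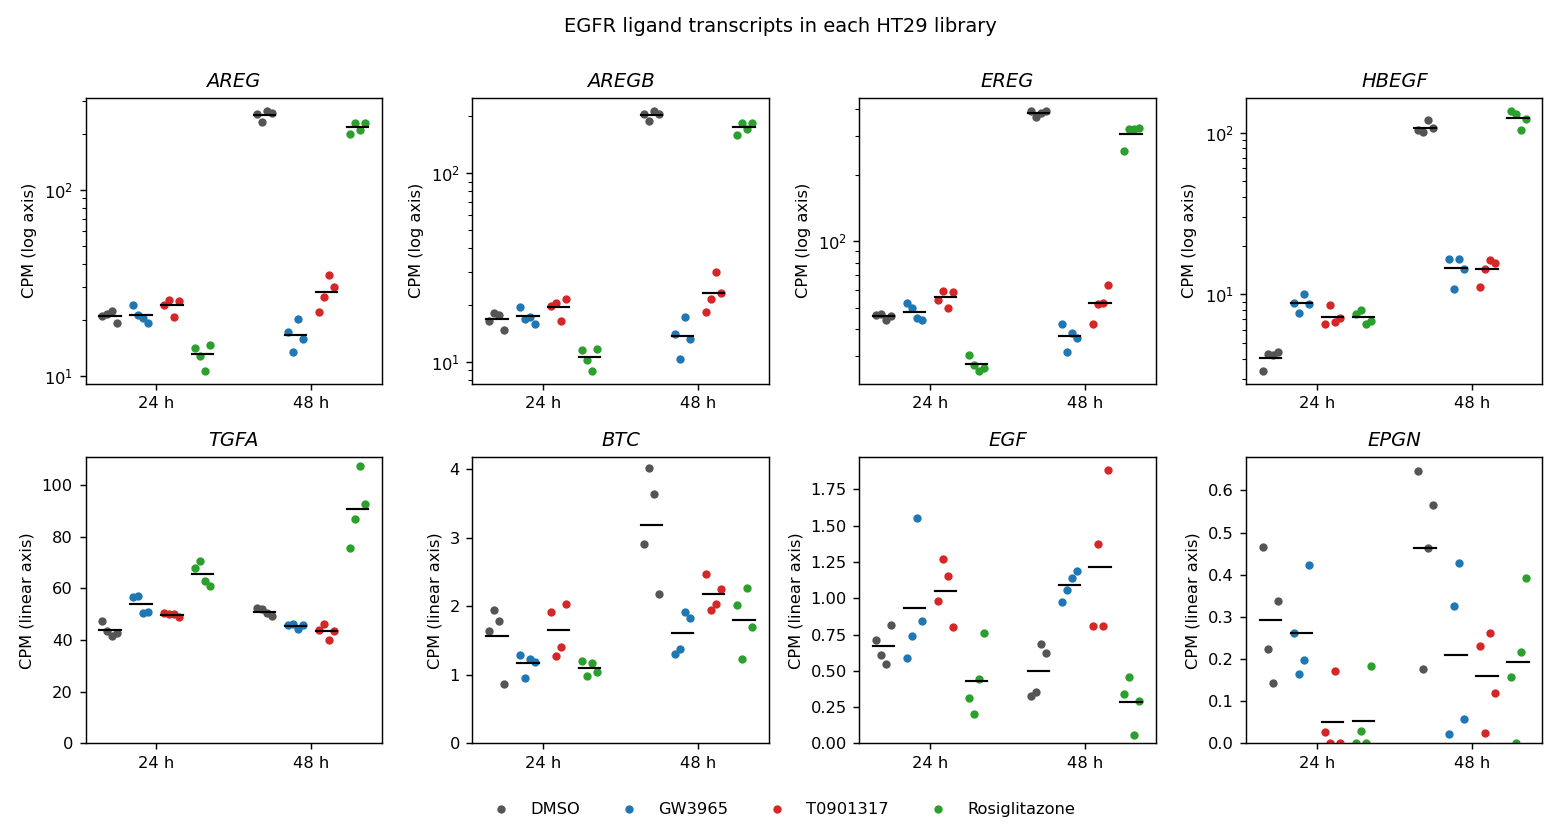
Level of each EGFR ligand gene in CPM in each of 32 HT29 libraries, by treatment at 24 and 48 h, with 1 point per library and a line at the mean of 4. The upper row has a log axis and the lower row a linear axis from 0. In the upper row DMSO and rosiglitazone libraries stand far above both LXR agonists at 48 h, whereas TGFA is highest with rosiglitazone.

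With both LXR agonists, the AREG pair at 48 h overlapped with its 24 h level, and so did EREG with T0901317, while EREG with GW3965 lay below its 24 h libraries, at 0.775 times their mean. The 48 h level of DMSO cells was not reached in any library of either agonist. At 48 h AREG alone had a mean of 253 CPM in DMSO, 16.7 CPM in GW3965, 28.5 CPM in T0901317 and 217 CPM in rosiglitazone libraries, and AREGB one of 204, 13.7, 23.2 and 175 CPM. With GW3965 at 48 h the AREG pair was at 31.2, 23.9, 37.6 and 29.0 CPM, EREG at 41.9, 31.2, 38.2 and 36.4 CPM and HBEGF at 16.5, 10.7, 16.6 and 14.4 CPM. No library came near the DMSO range, and the fitted levels were 15.1-fold, 10.4-fold and 7.37-fold lower. As a description, the log2 fold changes were -3.92 for AREG (SE 0.128), -3.90 for AREGB (SE 0.141), -3.38 for EREG (SE 0.116) and -2.88 for HBEGF (SE 0.133). BTC was lower by 0.98 (SE 0.199), a mean of 1.61 ± 0.307 CPM. EGF was higher by 1.11 (SE 0.354). This is the contrast on which the family was selected, so no count of members that passed the rule is given. Of all 22470 genes, 7.78% were lower and 8.27% higher by that rule.

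T0901317 is a chemically different agonist of the same receptors, and its libraries were not used in the choice of the genes, although the 4 DMSO libraries were. At 48 h the AREG pair was at 40.5, 48.1, 64.8 and 53.5 CPM, EREG at 41.9, 51.6, 52.2 and 63.3 CPM and HBEGF at 11.0, 14.2, 16.3 and 15.7 CPM. No library overlapped with the DMSO libraries in any of these genes. AREG fell by 3.15 (log2, SE 0.123, adjusted p 3.55e-13), AREGB by 3.14 (SE 0.135, adjusted p 1.77e-12), EREG by 2.87 (SE 0.113, adjusted p 3.92e-13) and HBEGF by 2.91 (SE 0.133, adjusted p 4.05e-12). The pair together fell by 3.14 (SE 0.131, adjusted p 1.04e-12), which is 8.84-fold lower. Of 8 members, 4 fell and 1 rose, when 7.28% of all genes tested fell and 6.99% rose. The median over the members was -2.18, against 0.0134 over all genes.

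EGF, the founding member of the family, moved the other way. Its level at 48 h was 0.323, 0.354, 0.683 and 0.621 CPM with DMSO and 0.811, 1.37, 0.806 and 1.88 CPM with T0901317, from 11 to 95 reads per library, and the groups did not overlap. It rose by 1.28 (log2, SE 0.350, adjusted p 0.00618) with T0901317. This call was lost when DMSO replicate 1 or 2 or T0901317 replicate 2 or 4 was left out, with differences of 1.12, 1.14, 1.22 and 0.97 and adjusted p-values of 0.0261, 0.0239, 0.0174 and 0.0371. With GW3965 it was at 0.974, 1.06, 1.14 and 1.19 CPM, also above all 4 DMSO libraries. TGFA, transforming growth factor alpha, was 51.0 ± 1.41 CPM with DMSO, 45.6 ± 0.774 with GW3965 and 43.5 ± 2.54 with T0901317, a difference of -0.23 (SE 0.0784, adjusted p 0.0231) for the last. BTC was at 2.17 ± 0.239 CPM with T0901317, a difference of -0.55 (SE 0.193, adjusted p 0.0288) that did not pass the rule, although it did without DMSO replicate 4 (-0.70, adjusted p 0.0065). EPGN, epigen, had between 0 and 22 reads in every library and passed the filter on low counts at 48 h only, so 7 of 8 members were tested at 24 h. Its mean at 48 h was 0.463 CPM in DMSO, 0.209 CPM in GW3965, 0.159 CPM in T0901317 and 0.192 CPM in rosiglitazone libraries, and the differences of -1.50 (SE 0.682, adjusted p 0.087) with T0901317 and -1.29 (SE 0.704, adjusted p 0.165) with rosiglitazone did not pass.

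The 2 LXR agonists were also set against each other at the same dose. At 48 h AREG was lower with GW3965 than with T0901317 by 0.77 (log2, SE 0.120, 95% interval -1.02 to -0.52) and AREGB by 0.76 (SE 0.133). The pair was at 30.4 ± 5.70 CPM with GW3965 and at 51.7 ± 10.2 CPM with T0901317, and all 4 GW3965 libraries lay below all 4 T0901317 libraries. EREG differed in the same direction, by -0.50 (SE 0.108), which is under 1.5-fold. HBEGF differed by 0.02, with a 95% interval from -0.25 to 0.30, and TGFA by 0.06, with an interval from -0.10 to 0.23. These values at 48 h reuse the GW3965 libraries whose low AREG level chose the family, so no count of members is given. Of all genes, 2.07% passed there in either direction. At 24 h none of 7 tested members passed in edgeR, beside 0.358% of all genes. DESeq2 also called 0, and 3 members had an unadjusted p under 0.05. EREG was nearest, at -0.23 with an unadjusted p of 0.00432.

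**Figure D2:**
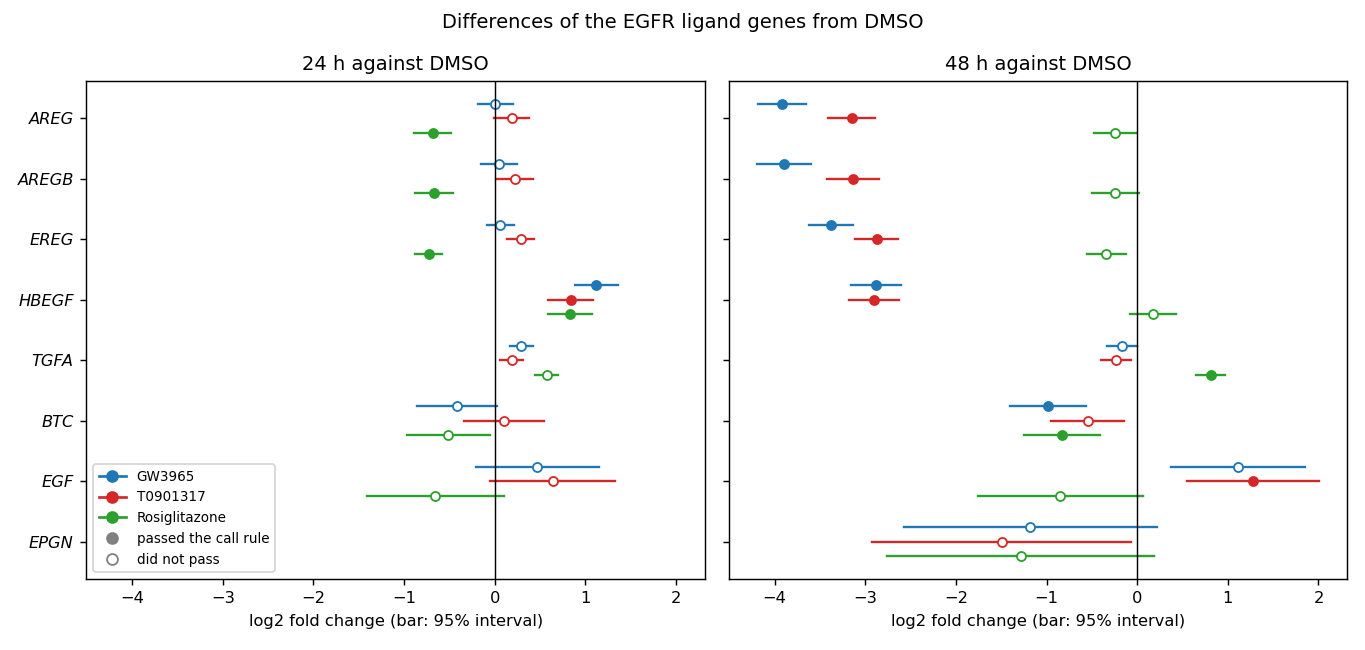
Log2 fold change against DMSO of each EGFR ligand gene at 24 h and 48 h for GW3965, T0901317 and rosiglitazone, with 95% intervals as bars. Filled points passed both the 1.5-fold limit and the limit of 0.01 on the adjusted p. For GW3965 at 48 h the filling is a description only, since that contrast chose the family. AREG, AREGB, EREG and HBEGF lie below -2.8 with both LXR agonists at 48 h only, and EPGN was not tested at 24 h.

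The low levels with the LXR agonists at 48 h had no counterpart at 24 h. At 24 h the AREG pair was at 43.6, 38.1, 37.8 and 35.01 CPM with GW3965 and at 43.9, 46.3, 37.3 and 46.9 CPM with T0901317, ranges that overlap with that of DMSO. Its difference from DMSO was 0.02 (log2, 95% interval -0.17 to 0.22) with GW3965 and 0.20 (0.01 to 0.40) with T0901317, and neither passed. EREG was above all 4 DMSO libraries with T0901317, by 0.29 (SE 0.0697, adjusted p 0.0283), but did not pass. HBEGF was the only member that passed at 24 h with an LXR agonist, and it was higher. It was at 8.83, 7.63, 10.0 and 8.68 CPM with GW3965 and at 6.55, 8.60, 6.73 and 7.13 CPM with T0901317, all above the DMSO range of 3.36 to 4.38 CPM. HBEGF rose by 1.12 (SE 0.113, adjusted p 1.61e-06) with GW3965 and by 0.84 (SE 0.116, adjusted p 0.000162) with T0901317. Thus 1 of 7 tested members rose with each agonist, when 0.992% of 21781 genes rose and 0.344% fell with GW3965 and 0.689% rose and 0.0321% fell with T0901317.

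The response to T0901317 changed between 24 and 48 h for the same 4 genes when the change itself was tested. That test contains the DMSO libraries at 48 h, which also enter the contrast that chose the family. The change was -3.34 (log2, SE 0.159, adjusted p 1.06e-16) for AREG, -3.36 (SE 0.173, adjusted p 6.31e-16) for AREGB, -3.16 (SE 0.136, adjusted p 7.06e-18) for EREG and -3.74 (SE 0.186, adjusted p 3.15e-16) for HBEGF. So 4 of 8 members passed as lower, beside 5.99% of 23140 genes. With GW3965, where the test contains the contrast that chose the family, the values were -3.93, -3.94, -3.44 and -4.00 as a description, beside 6.59% of genes lower. Seen within each treatment, the AREG pair at 48 h was 0.788 times its 24 h mean with GW3965 and 1.19 times with T0901317, and the libraries of both time points overlapped. The ratio was 12.1 with DMSO and 16.5 with rosiglitazone. HBEGF at 48 h was 1.65 and 1.97 times its 24 h mean with GW3965 and T0901317, without overlap, against 26.5 times with DMSO.

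Rosiglitazone gave another order of ligands. At 24 h the AREG pair was at 25.7, 23.1, 19.7 and 26.4 CPM and EREG at 30.4, 27.6, 25.8 and 26.6 CPM, all below the DMSO libraries. AREG fell by 0.69 (log2, SE 0.0957, adjusted p 3.08e-05), AREGB by 0.67 (SE 0.101, adjusted p 6.58e-05) and EREG by 0.73 (SE 0.0712, adjusted p 3.33e-07), while HBEGF rose by 0.83 (SE 0.115, adjusted p 2.8e-05). Of 7 tested members 3 fell and 1 rose, when 3.13% of genes fell and 1.81% rose. At 48 h the pair was at 360, 415, 381 and 412 CPM, close below DMSO, and the difference of -0.24 (SE 0.120, adjusted p 0.122) did not pass. EREG was at 256, 324, 324 and 325 CPM, a difference of -0.34 (SE 0.105, adjusted p 0.0155), and replicate 1 stood apart from the other libraries of its group. HBEGF was at 137, 130, 103 and 121 CPM, within or above the DMSO range, with a difference of 0.17 (95% interval -0.08 to 0.43).

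TGFA rose with rosiglitazone at 48 h. Its level was 67.8, 70.6, 62.8 and 61.1 CPM at 24 h and 75.8, 87.0, 108 and 92.7 CPM at 48 h, above every DMSO library of the same time. At 48 h it rose by 0.81 (log2, SE 0.0783, adjusted p 1.45e-07). At 24 h the difference was 0.57 (SE 0.0611, adjusted p 1.03e-06), just under 1.5-fold, and it passed when DMSO replicate 1 (0.62) or rosiglitazone replicate 3 (0.59) or 4 (0.61) was left out. BTC fell at 48 h by 0.83 (SE 0.202, adjusted p 0.0029), from 3.18 ± 0.814 to 1.80 ± 0.443 CPM, or 38 to 149 reads per library. EGF, at 0.340, 0.454, 0.0545 and 0.294 CPM with rosiglitazone, differed by -0.85 (SE 0.436, adjusted p 0.138). The call of BTC was lost without DMSO replicate 2 (-0.70, adjusted p 0.0161), DMSO replicate 3 (-0.75, adjusted p 0.0131) or rosiglitazone replicate 2 (-0.69, adjusted p 0.0126). At 48 h, then, 1 of 8 members rose and 1 fell, when 4.79% of all genes rose and 7.4% fell. None of the 8 members passed in edgeR for a change of the rosiglitazone response between 24 and 48 h, beside 1.46% of all genes. HBEGF was nearest there, at -0.65 (SE 0.180, adjusted p 0.0258), and it passed in DESeq2 (-0.66, adjusted p 0.00518), and 5 members other than BTC, EGF and EPGN had an unadjusted p under 0.05.

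Across the 8 groups the AREG pair ran in the order DMSO 48 h (457 ± 24.95 CPM), rosiglitazone 48 h (392 ± 26.3), T0901317 48 h (51.7 ± 10.2), T0901317 24 h (43.6 ± 4.42), GW3965 24 h (38.6 ± 3.61), DMSO 24 h (37.9 ± 2.75), GW3965 48 h (30.4 ± 5.70) and rosiglitazone 24 h (23.7 ± 3.06). From T0901317 48 h downward, each group overlapped with the next in that order. EREG had the same 2 groups on top, 383 ± 11.6 and 307 ± 34.4 CPM, and the same lowest group, 27.6 ± 1.98 CPM. HBEGF was lowest in DMSO at 24 h instead, at 4.05 ± 0.466 CPM, and DMSO and rosiglitazone overlapped at its top. TGFA had the narrowest order, from 43.5 ± 2.54 CPM in T0901317 48 h to 90.8 ± 13.2 CPM in rosiglitazone 48 h.

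The AREG row took between 53.85% and 56.75% of the reads of the pair in all 32 libraries, with group means from 55.0% to 55.7%. The share thus stayed within 3 points while the pair itself ranged from 19.7 to 480 CPM. Reads of the 8 members together made up 134 ± 4.08 CPM in DMSO at 24 h and 1003 ± 40.2 CPM at 48 h, and at 48 h the sum was 130 ± 11.5 CPM in the GW3965 group, 165 ± 17.8 CPM in the T0901317 group and 915 ± 59.0 CPM in the rosiglitazone group. TGFA made up 5.10% of these reads in DMSO at 48 h and 35.2% with GW3965, as shares of reads without regard to transcript length.

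**Figure D3:**
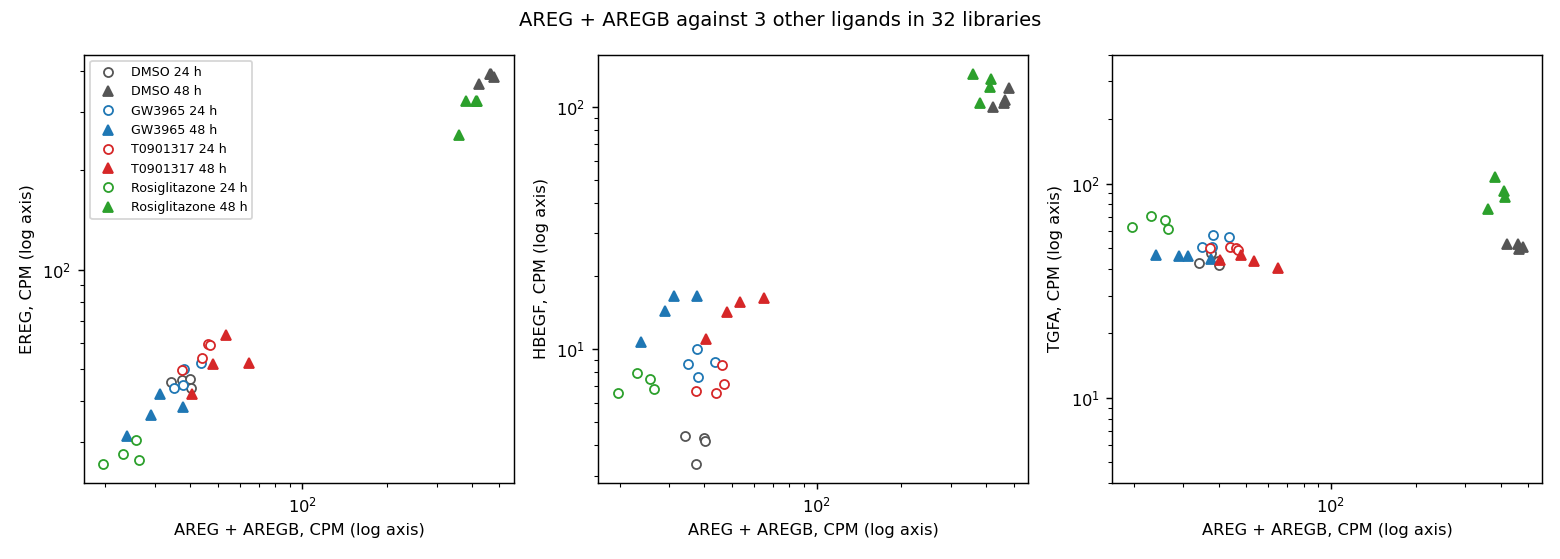
EREG, HBEGF and TGFA on the vertical axes against the sum of AREG and AREGB on the horizontal axis, in CPM on log axes, with 1 point per library for 32 libraries. Open circles are 24 h and filled triangles 48 h. DMSO and rosiglitazone at 48 h form a cluster apart from the other 6 groups, and TGFA stays between 40.2 and 108 CPM throughout.

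Over the 32 libraries, 14508 genes whose average log2 CPM was 1 or more were ranked by Pearson's r of log2 CPM with AREG, leaving out its copy. EREG came first (r = 0.995), followed by MXD1 (0.985), a partner of MAX that opposes MYC, MCL1 (0.981), an inhibitor of apoptosis, IER3 (0.980), an immediate early gene, and ERRFI1 (0.980), a feedback inhibitor of EGFR. HBEGF had r = 0.932 and rank 221, and TGFA r = 0.451. These coefficients are a description without a test, and the libraries they rest on fall into 2 clusters. MXD1 was at 65.3 ± 1.87 CPM in DMSO at 48 h, at 20.6 ± 0.475 with GW3965, at 22.1 ± 1.56 with T0901317 and at 56.9 ± 6.22 with rosiglitazone. At 24 h its 4 group means ran from 16.4 to 23.4 CPM.

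EREG, AREG, BTC and EPGN are neighbours on chromosome 4, and 3 protein-coding genes on each side of the run were looked up in the RefSeq order, a choice made after the tables had been seen. Some of these neighbours passed and some did not. MTHFD2L, next to EPGN, was -0.29 (log2, SE 0.0982, adjusted p 0.024) with T0901317 at 48 h and did not pass. PARM1, next to BTC, was 0.56 (SE 0.130, adjusted p 0.00158) there, under 1.5-fold, and it fell with rosiglitazone by 1.06 (SE 0.146, adjusted p 1.12e-05). CXCL2 and CXCL3, chemokines of neutrophils, fell with T0901317 by 2.52 (SE 0.356, adjusted p 1.1e-05) and by 1.35 (SE 0.259, adjusted p 0.000295), from means of 1.76 and 3.62 CPM in DMSO. RCHY1, a ubiquitin ligase, fell by 1.02 (SE 0.0782, adjusted p 4.6e-09). THAP6 differed by -0.13 (SE 0.120, adjusted p 0.425) with T0901317 at 48 h and did not pass.

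**Figure D4:**
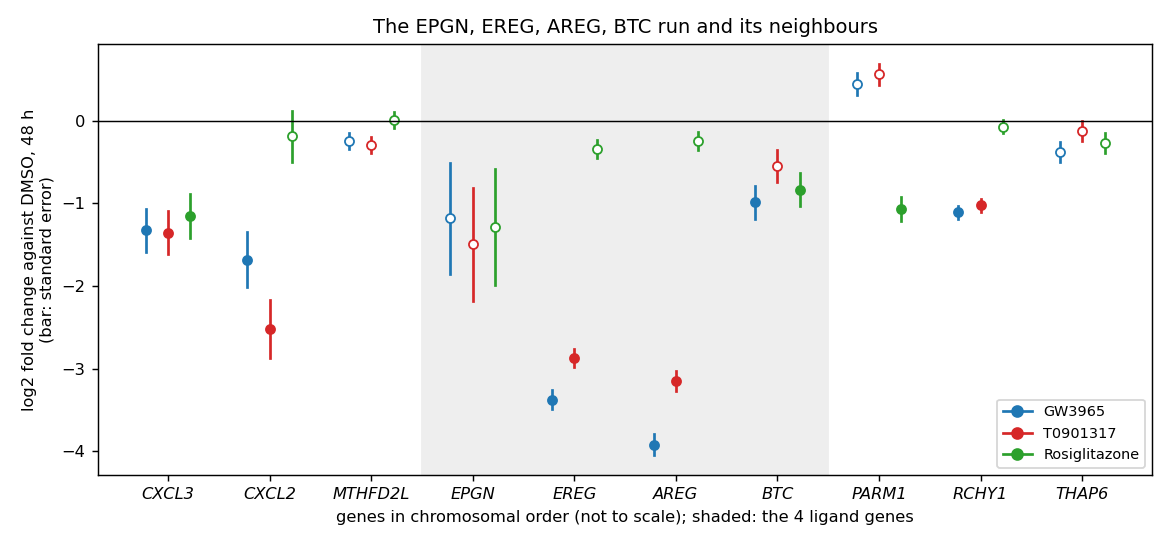
Log2 fold change against DMSO at 48 h, with standard errors as bars, of 10 genes in the order of the RefSeq table for chromosome 4, with the 4 ligand genes shaded. Filled points passed the rule, which for the ligand genes with GW3965 is a description only. EREG and AREG lie at -2.87 or below with both LXR agonists. Outside the run, CXCL2, CXCL3 and RCHY1 were lower and passed with both, while MTHFD2L, PARM1 and THAP6 did not pass with either.

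Beyond the ligands, 6 lists of pathway genes were examined, of which 63 of 69 genes could be tested. The lists were chosen with earlier results of these data known, so their counts and medians are a description. At 48 h their tests with GW3965 also use the libraries of the contrast that chose the family. At 24 h 1 of 63 rose with each LXR agonist and none fell, beside 0.992% and 0.689% of all genes higher with GW3965 and T0901317. The gene was ADAM19, a metalloprotease, which rose by 1.29 with both (SE 0.0878, adjusted p 6.89e-09 with GW3965 and SE 0.0882, adjusted p 1.08e-08 with T0901317). With rosiglitazone at 24 h ADAM19 was also higher, at 52.1 ± 4.76 CPM against 27.8 ± 3.24 CPM with DMSO. At 48 h 5 rose and 15 fell with GW3965, when 8.27% of all genes rose and 7.78% fell. With T0901317 4 rose and 15 fell, when 6.99% of all genes rose and 7.28% fell. With rosiglitazone 3 rose and 4 fell at 24 h, and 7 rose and 10 fell at 48 h. Of all genes, 1.81% rose and 3.13% fell with it at 24 h, and 4.79% rose and 7.4% fell at 48 h.

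Of 4 receptor genes, 3 were tested. ERBB2, the preferred partner of the other receptors, rose at 48 h by 0.82 (log2, SE 0.0952, adjusted p 9.75e-07) with GW3965 and by 0.76 (SE 0.0952, adjusted p 2.51e-06) with T0901317, and fell by 0.59 (SE 0.0955, adjusted p 6.86e-05) with rosiglitazone. EGFR itself was 118 ± 3.71 CPM with DMSO, 88.8 ± 1.87 with GW3965 and 93.0 ± 11.6 with T0901317, differences of -0.41 (SE 0.103, adjusted p 0.00271) and -0.34 (SE 0.102, adjusted p 0.0116) that did not pass. Of 4 neuregulins, ligands of ERBB3 and ERBB4, only NRG4 could be tested, and it did not pass in any drug comparison. Among 10 tested sheddases and their iRhom partners, ADAM19 also rose at 48 h with all 3 drugs, by 1.25, 0.78 and 0.84 with GW3965, T0901317 and rosiglitazone (adjusted p 2.15e-09, 9.78e-07 and 5.87e-07). RHBDF2, an iRhom that guides ADAM17, rose with GW3965 (0.63, adjusted p 1.2e-05) and rosiglitazone (0.96, adjusted p 1.29e-07), and ADAM15 with rosiglitazone (0.66, adjusted p 4.05e-07). ADAM17, the main sheddase of AREG, EREG, HBEGF and TGFA, did not pass the 1.5-fold limit with any drug. It was at 44.4 ± 2.63 CPM with DMSO at 48 h and differed by 0.56 (adjusted p 8.95e-05) with rosiglitazone, at 66.3 ± 11.7 CPM, and by -0.49 (adjusted p 0.000227) with GW3965, at 31.6 ± 1.08 CPM, without overlap with DMSO in either case. From 24 to 48 h in DMSO cells ADAM17 rose by 0.69 (SE 0.0863, adjusted p 5.23e-08). Of 21 adaptors and cascade genes, 2 rose and 3 fell with GW3965 at 48 h, beside 8.27% and 7.78% of all genes. With T0901317 2 rose and 2 fell, beside 6.99% and 7.28%. With rosiglitazone 1 rose and 2 fell, beside 4.79% and 7.4%. Nothing is read from these small counts. PLCG1, a phospholipase that binds the receptor, was at 37.7 ± 2.37 CPM with DMSO, rose by 0.99 (SE 0.117, adjusted p 1.15e-06) with GW3965 and by 0.82 (SE 0.117, adjusted p 1.29e-05) with T0901317, and fell by 1.32 (SE 0.124, adjusted p 9.98e-08) with rosiglitazone. BRAF, a kinase between RAS and ERK, fell with both LXR agonists, by 0.81 (adjusted p 1.86e-05) and 0.69 (adjusted p 0.000123). GAB1 differed from DMSO by -0.72 (log2) with GW3965 and SHC1 by -0.69 with T0901317. SHC1 was at 326 ± 32.5 CPM with rosiglitazone, against 211 ± 14.3 CPM with DMSO.

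Most ERK target genes and a few inhibitors were lower with the LXR agonists than with DMSO at 48 h. Of 16 inhibitors, 2 fell with GW3965 and 3 with T0901317, and none rose with either, beside 7.78% and 7.28% of all genes lower. ERRFI1 was at 880 ± 57.5 CPM with DMSO, 95.2 ± 9.82 with GW3965 and 99.4 ± 11.5 with T0901317, a fall by 3.21 (log2, SE 0.0993, adjusted p 1.05e-14) and by 3.15 (SE 0.0990, adjusted p 2.06e-14). SPRY4, a Sprouty protein that dampens RAS signalling, fell by 1.03 (adjusted p 5.62e-08) and 1.28 (adjusted p 3.71e-09). Of 12 ERK target genes, 10 fell with GW3965 and 10 with T0901317, and none rose, beside 7.78% and 7.28% of all genes lower. The median of the ERK targets was -1.30 and -1.43, against 6.02e-05 and 0.0134 over all genes. The list was chosen with earlier results known, so count and median are a description. The transcription factor EGR1 was at 1024 ± 141 CPM with DMSO and at 137 ± 22.2 and 94.6 ± 12.9 with GW3965 and T0901317, and fell by 2.90 (SE 0.189, adjusted p 4.79e-10) and by 3.44 (SE 0.193, adjusted p 7.56e-11). FOSL1, a component of AP1, fell, with log2 fold changes of -2.40 (adjusted p 8.22e-14) and -2.72 (adjusted p 2.08e-14). DUSP5, a phosphatase of nuclear ERK, fell by 2.12 (adjusted p 9.55e-11) and 2.49 (adjusted p 1.23e-11), and IER3 by 1.98 (adjusted p 1.19e-11) and 1.90 (adjusted p 2.09e-11). These falls are against DMSO at 48 h. At 24 h the GW3965 and T0901317 means were 78.6 and 73.6 CPM for EGR1 and 76.2 and 72.9 CPM for ERRFI1, below those of 48 h. Among the genes named here, FOSL1 with both agonists and SPRY4 with T0901317 had lower means at 48 h than at 24 h. FOSL1 went from 26.4 to 13.5 CPM with GW3965 and from 25.9 to 10.7 CPM with T0901317. The inhibitor and ERK target lists share IER3 and ERRFI1 with the genes most like AREG.

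With rosiglitazone the inhibitors and the ERK targets moved in different ways. At 48 h 6 of 16 inhibitors fell and none rose, among them SPRY4 by 1.07 (adjusted p 6.01e-08), SPRY2 by 1.02 (adjusted p 2.08e-09) and LRIG1, a receptor that speeds EGFR turnover, by 0.97 (adjusted p 5.05e-07), but ERRFI1 stayed at 820 ± 82.6 CPM. Of 12 ERK targets 3 rose and 1 fell, when 4.79% of all genes rose and 7.4% fell at 48 h. FOSL1 was at 158 ± 14.7 CPM against 70.9 ± 5.42 with DMSO, a rise by 1.14 (SE 0.0790, adjusted p 1.61e-09), and DUSP4 fell by 1.02 (SE 0.0704, adjusted p 1.53e-09). Already at 24 h, 3 inhibitors fell, CBLB by 0.999 (adjusted p 7e-06), LRIG1 by 0.82 (adjusted p 9.74e-08) and SPRY2 by 0.72 (adjusted p 4.57e-06), FOS and PHLDA1 rose by 1.11 (adjusted p 7.28e-09) and 0.63 (adjusted p 3.64e-08) and DUSP4 fell by 0.91 (adjusted p 6.47e-08). Of all genes, 3.13% fell and 1.81% rose with rosiglitazone at 24 h. In DMSO cells between 24 and 48 h, 10 of 12 ERK targets and 3 of 16 inhibitors rose and none of either list fell. Beside them, 10.9% of all genes rose and 9.59% fell between these times. EGR1 rose by 4.31 (SE 0.194, adjusted p 2.52e-18) and ERRFI1 by 3.89 (SE 0.0920, adjusted p 3.85e-25). Counts over the ERK targets rest on the same DMSO libraries as those of the ligands.

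**Figure D5:**
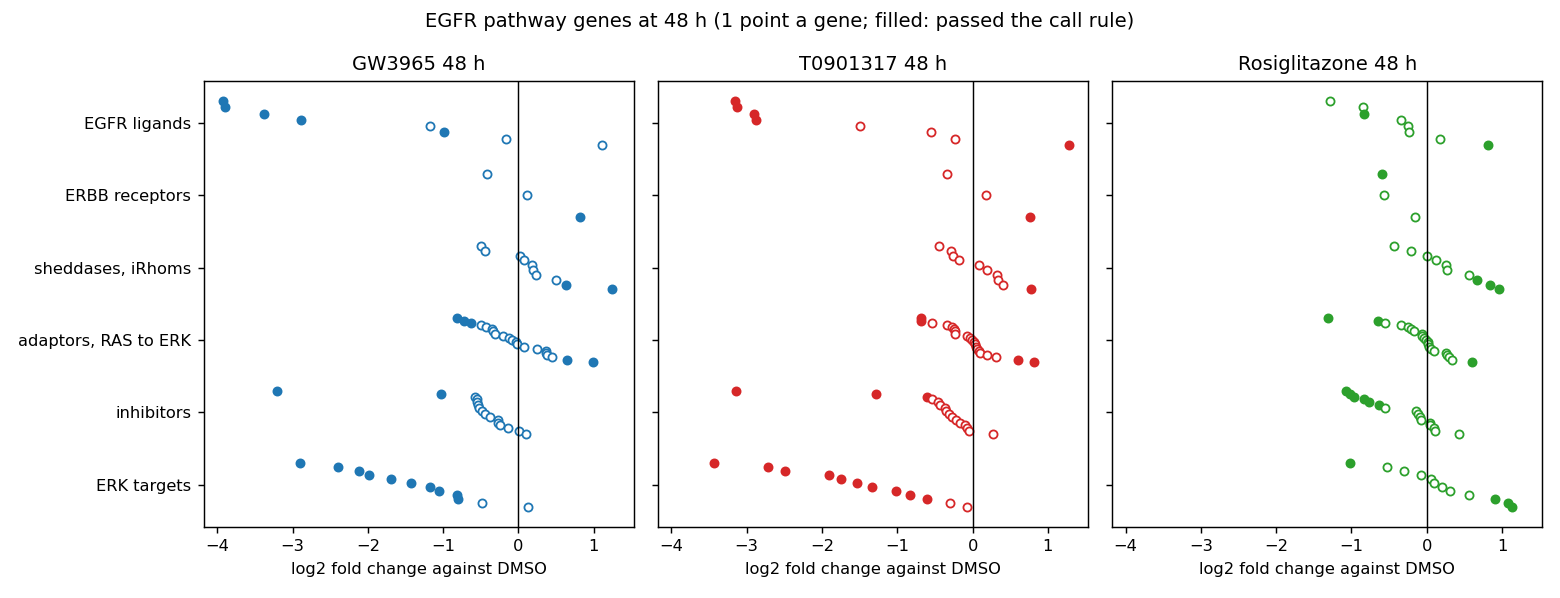
Log2 fold change against DMSO at 48 h of the genes of the EGFR ligand family and of 5 lists of pathway genes, with 1 point per tested gene, in panels for GW3965, T0901317 and rosiglitazone. Filled points passed the rule, which for the ligand genes with GW3965 is a description only. With both LXR agonists 10 of 12 ERK targets lie to the left as filled points, and with rosiglitazone 3 lie to the right and 1 to the left. Of all genes, 7.78% and 7.28% were lower with GW3965 and T0901317, and 4.79% higher and 7.4% lower with rosiglitazone.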

How the data were processed

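For RNA-seq, the authors isolated mRNA, fragmented cDNA with Nextera transposases and sequenced both ends. The authors deposited raw counts for each Ensembl gene in 1 table per time point. The submitters' processing notes name TopHat, Cufflinks and hg19, while the sources used here do not name the counting program or strand setting.

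Genes were filtered with filterByExpr and scaled by TMM in edgeR 4.0.16 (R 4.3.3). Each time point was fitted on its 16 libraries. Every drug was compared with DMSO, and GW3965 with T0901317, in edgeR's quasi-likelihood test, and p-values were adjusted over all genes (Benjamini-Hochberg). A fit of all 32 libraries gave the differences between 24 and 48 h. The F statistic and the fold change gave each standard error. The scripts were tested on simulated data. Plots were drawn with matplotlib 3.10.9. At these depths, counts under 150 per library limit the precision for BTC, EGF and EPGN.

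The members and lists were chosen with earlier results of these data known. Genes were named by rule. These were all members, 4 drug targets, of each pathway list and time the up to 4 called genes of largest change whose average log2 CPM was 1 or more, and the 5 genes most like AREG. EGFR, NRG4, ADAM17, the immune markers, the genes beside the run on chromosome 4, and pathway genes called with other drugs than the one that named them were added after their values had been seen. Promoter sequences are from RefSeq, build GRCh38.p14. ChIP-seq peaks, in hg19, were not analysed here, because no hg19 gene positions were used. Alternatives were DESeq2 1.42.0, other scaling, no low count filter, a fit of only the compared groups, a replicate block, the fold limit, summing AREG and AREGB, and leaving out single libraries. The level of 1 immune marker is not reported here.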

Additional observations from a re-analysis of the deposited data

Results flagged for a closer look

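In 3 of 72 gene and group combinations of the ligand genes, 1 of the 4 libraries stood far from the others, and chance alone gives about 1 in 20. EREG in rosiglitazone replicate 1 at 48 h was at 256 CPM, against 324 to 325 CPM in the other libraries. EPGN was at 0.173 CPM in T0901317 replicate 3 at 24 h and at 0.183 CPM in rosiglitazone replicate 4 at 24 h, which is 6 reads in each case, against 0 to 0.0259 and 0 to 0.0289 CPM in the others.

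The response to T0901317 differed between 24 and 48 h for 4 rows. The difference of the log2 fold changes, 48 h minus 24 h, was -3.34 for AREG, -3.36 for AREGB, -3.16 for EREG and -3.74 for HBEGF with T0901317. With GW3965, as a description, it was -3.93, -3.94, -3.44 and -4.00 in the same order.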

How the results depend on the processing

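Under every alternative run, no fold change of a member that passed in either fit changed sign. DESeq2 size factors and the replicate block changed no call of a member. The deviations of same-numbered libraries from their group means correlated at -0.103 to 0.172, with 2 of 24 pairs over 0.1 at 24 h and 0 of 24 at 48 h. Pairs with different numbers ran from -0.228 to 0.171 at 24 h and from -0.0874 to 0.066 at 48 h. Pairing by number was thus not evident, which cannot show whether replicates share a culture or day. With the block the number of members that passed stayed at 5 for T0901317 and at 2 for rosiglitazone at 48 h. At a fold change of at least 2, no member passed with T0901317 at 24 h or with rosiglitazone at 24 h or 48 h (0 each), beside 0.28%, 2.18% and 5.86% of all genes. The pathway genes that passed at that limit were 1 with rosiglitazone at 24 h, and 11, 10 and 6 with GW3965, T0901317 and rosiglitazone at 48 h. Beside them stood 2.18%, 5.77%, 5.4% and 5.86% of all genes. With no fold limit they were 3 and 24 with GW3965 and rosiglitazone at 24 h, and 45, 36 and 31 at 48 h, beside 2.73%, 12.3%, 33.6%, 30% and 25.5% of all genes, and 2 members passed with GW3965 at 24 h. The pathway count with GW3965 at 24 h was 2 with DESeq2 and 2 without the low count filter, and that with rosiglitazone at 24 h was 11 with scaling by library size. Members with rosiglitazone at 48 h numbered 1 when only the libraries of both groups were fitted, and members whose rosiglitazone response changed numbered 1 with DESeq2. Scaling by library size shifted the median of all genes by -0.179 with rosiglitazone at 48 h, where 19.4% of called genes were higher instead of 39.3%. At 24 h the shares were 23.9% and 36.7%, and between the LXR agonists at 48 h 39% and 64.3%. EREG then differed by -0.59 between the LXR agonists, as a description. The test of EGF with GW3965 at 48 h is not read here.

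With 1 library left out at a time, members that passed numbered 1 with each LXR agonist and 4 to 6 with rosiglitazone at 24 h, and 4 to 6 and 1 to 2 with T0901317 and rosiglitazone at 48 h. For GW3965 at 48 h, the contrast that chose the family, no count of members is given. Pathway genes numbered 1 to 2, 1 and 7 to 8 at 24 h, and 19 to 22, 17 to 19 and 16 to 19 at 48 h. Between the LXR agonists the members numbered 0 at 24 h, the response changed for 4 and 0 members with T0901317 and rosiglitazone, and 5 passed in DMSO between the time points. The pathway count with GW3965 at 24 h was 2 without GW3965 replicate 1. The shares of all genes to set beside these counts are those given above for each comparison, from the fits with no library left out. Apart from alternatives with fewer libraries or another fold limit by construction, the cause was not tested. The alternatives for ChIP-seq peaks near the members, a 10 kb window and peaks in both replicates, were not run. Low counts limit what can be said of EGF, EPGN and BTC.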
